A study of Homo sapiens with 4 samples.

Results

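The genes described here are 10 components and outputs of the circadian clock, NR1D1, NR1D2, DBP, TEF, PER1, PER2, PER3, CRY1, BHLHE40 and CLOCK, taken by name from 57891 genes with deposited transcripts. They were measured in AC16, an established human line derived from adult ventricular heart cells fused with SV40-transformed fibroblasts. The libraries came from cells kept 10, 30 or 360 min in serum-free DMEM with 10 nM doxorubicin, an anthracycline that intercalates into DNA and poisons topoisomerase II, and from untreated cells (0 min). With 1 library at each time there is no replicate check and no p-value, and what is compared are libraries. The treated cells also left serum-containing medium and were rinsed when the drug was given. It is not stated whether untreated cells were handled likewise, so drug, serum removal and handling cannot be told apart.

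The circadian clock is a feedback loop of transcription. CLOCK pairs with BMAL1 (ARNTL) and activates genes through E-boxes, among them the PER and CRY genes, whose proteins return to the nucleus and inhibit the pair. A second loop runs through the nuclear receptors REV-ERB alpha and beta (NR1D1 and NR1D2), which repress ARNTL at sites where ROR receptors activate it. DBP and TEF, bZIP factors of the PAR family, carry the rhythm to output genes through D-boxes. In cultured cells the loop is reset by serum, glucocorticoids and cyclic AMP, and in the heart it is known for timing metabolism and contractile function.

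Levels are given in CPM, the deposited estimated counts of a gene's annotated transcripts scaled to a library total of 1000000. The range after a level is a 95% exact Poisson counting interval, and that after a ratio a 95% exact binomial (Clopper-Pearson) counting interval. Both cover counting error only. The size rule asked for a ratio of 2-fold or larger in either direction whose interval excluded 1, and for 5 CPM or more in either library. Depth was even, with 55156612 to 56875881 counts, or about 13789153 to 14218970 read pairs, per library. At this depth a count of 0 allows up to 0.211 to 0.218 CPM. The 10 min library stood apart from the rest: it had 26417 genes with counts, against 25037 to 25111 in the others, and 11.7% of its counts lay in assembled models, against 10.7 to 11.1%. In the 3 comparisons with it, 6.85% to 9.13% of genes tested passed the size rule in each direction, and in the 3 without it 3.25% to 3.55%. Its part in the 10 min results was not tested.

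Of 15 cardiomyocyte markers, 6 reached 5 CPM at 0 or 10 min, MYL2, NPPB and others not named here among them. The list summed to 119 CPM at 0 min and 217 CPM at 30 min. PLN was at 0 in all 4 libraries and TNNT2, TNNI3, MYH6, MYH7, ACTN2 and NPPA were under 1 CPM, whereas MYL2 stood at 27.7 to 37.9 CPM and NPPB at 37.1 to 122 CPM. Fibroblast markers summed to 5418 to 7627 CPM, mostly COL1A1 and COL1A2, with DCN and LUM at 0. The 10 min library had the highest sums for 3 of the marker lists. Fibroblast markers reached 7627 CPM there and 5418 to 6620 CPM in the other libraries. Endothelial markers reached 11.4 CPM, mostly VWF, against 4.54 to 5.91 CPM elsewhere, with KDR at 0 throughout. Immune markers reached 57.6 CPM, mostly CD68, against 29.8 to 33.0 CPM elsewhere. Cardiomyocyte markers peaked at 30 min. Epithelial markers (465 to 517 CPM), mostly KRT8 and KRT18, differed little. CDH1 was at 0.229 to 0.362 CPM and EPCAM at 0.422 CPM at 0 min and 0.755 CPM at 10 min. The part of these marker differences in the results below was not tested. In these bulk samples fewer cells of a type and less RNA per cell cannot be told apart.

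The promoters of the 5 members past the size rule at 10 min are shown first, because the clock elements in them differ from gene to gene. Each window runs from 250 bases before to 50 bases after a RefSeq gene start (GRCh38.p14) and is written 5′ to 3′ on the strand of its gene. Capitals mark the E-box CACGTG, the E′-box CACGTT, the D-box TTATGNAA and the AGGTCA core of ROR elements, each searched on both strands. The windows are chr17:40100540-40100839 (minus strand) for NR1D1, chr22:41381692-41381991 (plus) for TEF, chr17:8152355-8152654 (minus) for PER1, chr1:7784041-7784340 (plus) for PER3 and chr19:48637330-48637629 (minus) for DBP.
NR1D1: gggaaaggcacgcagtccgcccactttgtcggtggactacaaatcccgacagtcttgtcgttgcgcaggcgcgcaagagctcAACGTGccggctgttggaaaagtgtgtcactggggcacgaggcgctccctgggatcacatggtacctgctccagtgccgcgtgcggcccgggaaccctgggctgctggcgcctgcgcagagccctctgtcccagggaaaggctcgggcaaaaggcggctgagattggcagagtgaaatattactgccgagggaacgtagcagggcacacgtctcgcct
TEF: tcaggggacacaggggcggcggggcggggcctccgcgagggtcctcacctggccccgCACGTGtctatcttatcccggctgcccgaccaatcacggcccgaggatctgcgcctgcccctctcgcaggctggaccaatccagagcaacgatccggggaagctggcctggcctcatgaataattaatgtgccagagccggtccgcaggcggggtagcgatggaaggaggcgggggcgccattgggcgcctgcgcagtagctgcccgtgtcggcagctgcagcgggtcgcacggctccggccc
PER1: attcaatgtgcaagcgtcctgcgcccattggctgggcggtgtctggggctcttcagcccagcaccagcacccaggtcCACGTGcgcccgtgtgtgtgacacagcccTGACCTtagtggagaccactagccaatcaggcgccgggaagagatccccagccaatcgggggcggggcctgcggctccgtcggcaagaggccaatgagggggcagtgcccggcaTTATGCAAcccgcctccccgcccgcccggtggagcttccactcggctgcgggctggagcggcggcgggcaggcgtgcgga
PER3: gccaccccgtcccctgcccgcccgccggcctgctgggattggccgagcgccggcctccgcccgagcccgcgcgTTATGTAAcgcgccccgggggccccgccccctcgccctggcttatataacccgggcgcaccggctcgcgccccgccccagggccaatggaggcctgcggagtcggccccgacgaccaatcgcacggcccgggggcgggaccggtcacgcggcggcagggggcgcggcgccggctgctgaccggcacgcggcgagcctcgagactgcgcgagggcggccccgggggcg
DBP: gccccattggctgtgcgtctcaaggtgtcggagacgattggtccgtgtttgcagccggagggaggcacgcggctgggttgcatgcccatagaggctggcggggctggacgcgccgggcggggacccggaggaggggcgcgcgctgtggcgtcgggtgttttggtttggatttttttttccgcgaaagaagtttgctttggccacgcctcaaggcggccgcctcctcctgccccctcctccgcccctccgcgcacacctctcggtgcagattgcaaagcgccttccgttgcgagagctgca

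The NR1D1 window holds 1 E′-box, read as AACGTG on the gene's strand, 168 bases before the start. TEF has 1 E-box 193 bases before the start used by its only abundant transcript, and its other, more distal window has another. PER1 carries 3 kinds of element: an E-box 173 bases, a ROR core (TGACCT on this strand) 144 bases and a D-box 30 bases before the start. PER3 has a D-box and no E-box, with the D-box 177 bases before the start, and the second PER3 window has no element. The PER3 window printed here lies 412 bases from the start of the main transcript, and the second window is nearer, at 274 bases. None of these letters occurs in the DBP window. A match describes letters in this window and says nothing about binding.

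Over all windows of a gene, 8 of the 10 genes have an E-box or E′-box, against 14.5% of 27305 genes with a RefSeq window. NR1D2, TEF, PER1 and BHLHE40 have the E-box (8.77% of genes), and NR1D1, PER2, CRY1 and CLOCK have the E′-box (6.44%). For CLOCK the window with the element lies 35905 bases from the start of the main transcript. That distance is 861 bases for NR1D2, 321 for BHLHE40 and 280 for CRY1. The BHLHE40 window lies after the start of its main transcript. NR1D2, PER1 and PER3 have the D-box (4.11%). PER1 alone has the ROR core (16.5%), and the cAMP response element TGACGTCA is in none of the 10 (2.25%). The 10 were taken as known clock genes, so these shares describe them and are no test.

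At 10 min of doxorubicin, 5 of the 10 clock genes were past the size rule and all 5 were higher than at 0 min: NR1D1, PER3, DBP, PER1 and TEF. Of 11892 genes tested in this comparison, 7.69% were higher and 6.85% lower by the same rule. The median log2 ratio of the 10 was 1.00, beside -0.04 over all genes tested. The 10 were chosen with earlier results of these data known, so these values describe them and are no test. BHLHE40, PER2 and NR1D2 were higher by less than 2-fold, and CRY1 and CLOCK were lower by less than 2-fold. Across the 4 libraries 8 of the 10 were highest at 10 min and CRY1 and CLOCK were lowest there. Among 12140 genes with at least 5 CPM in a library, 34.1% were highest and 39.1% lowest at 10 min.

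**Figure D1:**
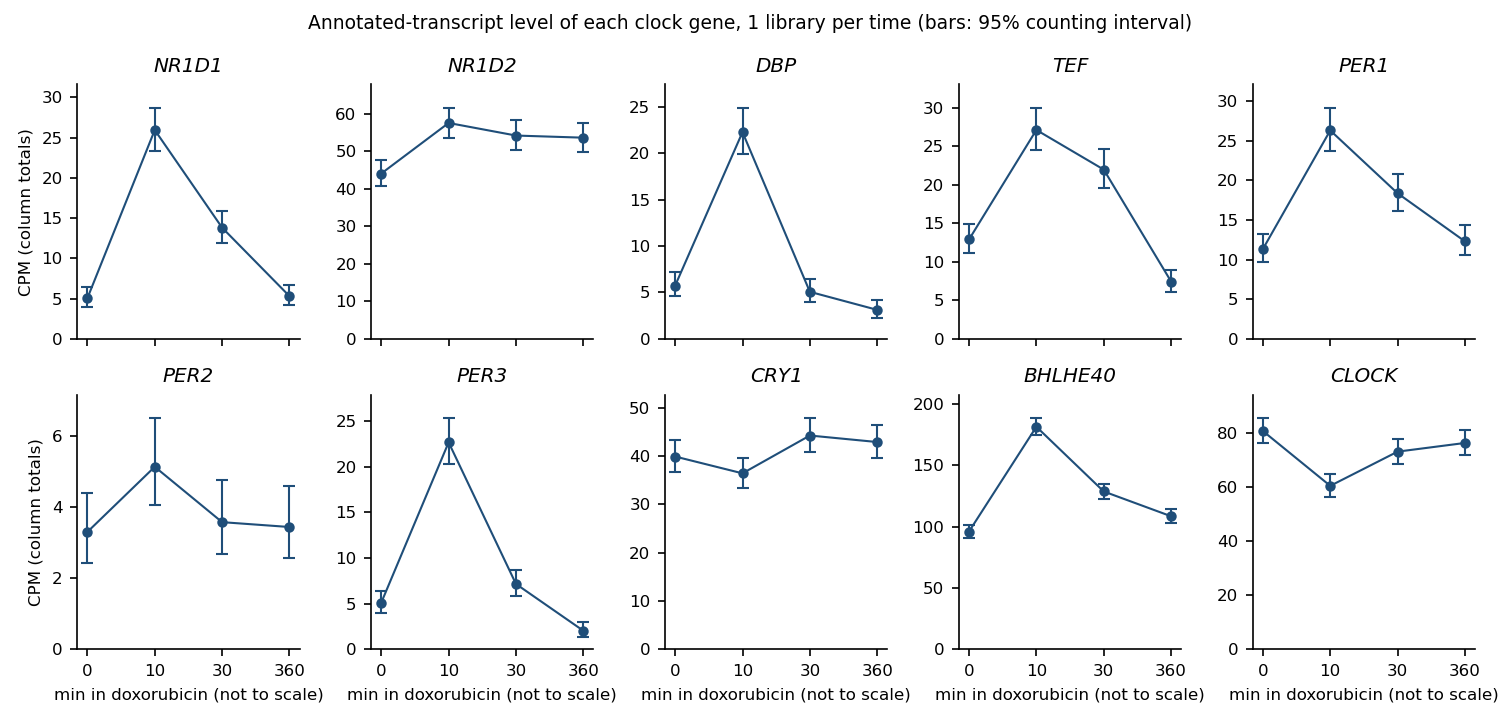
CPM of each of the 10 clock genes (vertical axes, each from 0) at 0, 10, 30 and 360 min in doxorubicin (horizontal axis, not to scale), with 1 library per time and bars for the 95% counting interval. NR1D1, DBP and PER3 stand between 22.3 and 25.9 CPM at 10 min and between 5.05 and 5.73 CPM at 0 min, whereas CRY1 stays between 36.4 and 44.3 CPM.

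NR1D1 (ENSG00000126368, chr17:40092787-40100725, minus strand) encodes REV-ERB alpha, the heme-binding receptor that represses ARNTL. It stood at 5.05, 25.9, 13.8 and 5.29 CPM at 0, 10, 30 and 360 min. The 10 min library was the highest and the 360 min library lay within the interval of the 0 min library. The ratio to 0 min was 5.14 (3.96 to 6.68) at 10 min and 2.74 (2.07 to 3.63) at 30 min. At 360 min it was 1.05 (0.745 to 1.47). NR1D1 is the only member past the rule at both 10 and 30 min with all its annotated transcripts counted. Its counts rest on a single annotated transcript, so none could move between transcripts of NR1D1 itself. Whether reads moved between NR1D1 and the overlapping gene THRA was not tested.

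THRA, the thyroid hormone receptor alpha gene, runs towards NR1D1 on the other strand and shares 263 exon bases with it, 9.49% of the exon bases of NR1D1. Use of strand in counting is not given in the sources used here, so reads in the shared bases cannot be assigned to either gene. THRA stood at 55.7, 72.4, 51.2 and 36.2 CPM at 0, 10, 30 and 360 min. Its transcript THRA-201 (ENST00000264637), which contains all the shared bases, had 691, 204, 129 and 83 counts. THRA-201 was highest at 0 min, where NR1D1 was lowest, and lowest at 360 min, where NR1D1 was almost as low (5.29 CPM). THRA-203 (ENST00000450525), which shares none, had 2286, 3655, 2621 and 1858 counts.

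NR1D2 (ENSG00000174738, chr3:23945260-23980618, plus strand) encodes REV-ERB beta, the closest relative of REV-ERB alpha. It stood at 44.1, 57.6, 54.2 and 53.7 CPM at 0, 10, 30 and 360 min. All 3 treated libraries were above the 0 min library by similar amounts, with ratios of 1.31 (1.17 to 1.45) at 10 min, 1.23 (1.11 to 1.37) at 30 min and 1.22 (1.09 to 1.36) at 360 min. No ratio reached 2-fold. An assembled, unannotated model of the locus had 230 counts at 0 min and 0 at the later times. With it included the ratio at 10 min was 1.20 (1.08 to 1.33).

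DBP (ENSG00000105516, chr19:48630030-48637438, minus strand), the D-box binding protein, is among the most strongly rhythmic clock outputs in mammalian tissues. It stood at 5.73, 22.3, 5.07 and 3.12 CPM at 0, 10, 30 and 360 min. For the whole gene only the 10 min library was high, and the intervals at 0 min (4.59 to 7.16) and 30 min (3.95 to 6.40) overlapped. The ratio to 0 min was 3.89 (3.02 to 5.00) at 10 min, 0.884 (0.629 to 1.22) at 30 min and 0.544 (0.365 to 0.791) at 360 min.

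The counts of DBP were spread differently over its transcripts at each time. DBP-201 (ENST00000222122, 2229 bases) had 54, 777, 169 and 75 counts at 0, 10, 30 and 360 min, which was 62.7% of DBP counts at 10 min and 16.6% at 0 min. The short DBP-202 (ENST00000593500, 712 bases) had 191, 312, 90 and 77 counts. DBP-201 alone gave a 10 min ratio of 14.7 (8.25 to 26.4) and DBP-202 alone a ratio of 1.67 (1.15 to 2.43). At 30 min they lay on opposite sides of 0 min, with a ratio of 3.22 (1.65 to 6.12) for DBP-201 and 0.485 (0.271 to 0.796) for DBP-202. Per length, the DBP level was 34.9 TPM at 10 min and 14.0 TPM at 0 min, a ratio of 2.50. SPHK2, a sphingosine kinase gene on the other strand, shares 661 bases with DBP exons (10.1% of them), so DBP is uncertain in those bases. SPHK2 stood at 26.1, 18.4, 21.9 and 18.9 CPM at 0, 10, 30 and 360 min. It was lowest at 10 min, where DBP was highest, and almost as low at 360 min, where DBP was lowest.

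TEF (ENSG00000167074, chr22:41367333-41399326, plus strand), thyrotroph embryonic factor, binds the same D-boxes as DBP. It stood at 12.9, 27.1, 22.0 and 7.43 CPM at 0, 10, 30 and 360 min. Both early libraries were above 0 min and the 360 min library was below it, with no overlap between the 0 min interval (11.1 to 14.9) and the others. The ratio to 0 min was 2.10 (1.76 to 2.53) at 10 min, 1.70 (1.42 to 2.06) at 30 min and 0.577 (0.447 to 0.736) at 360 min. Against 0 min TEF was therefore past the rule at 10 min only, just above the 2-fold limit.

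PER1 (ENSG00000179094, chr17:8140472-8156506, minus strand), a repressor of CLOCK and BMAL1, is also the PER gene best known for rapid induction by clock-resetting signals. It stood at 11.3, 26.3, 18.4 and 12.3 CPM at 0, 10, 30 and 360 min. The ratio to 0 min was 2.32 (1.93 to 2.82) at 10 min, 1.62 (1.33 to 1.99) at 30 min and 1.09 (0.873 to 1.36) at 360 min. The 360 min and 0 min intervals overlapped.

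The 0 min value of PER1 contains a transcript that no other library shows. PER1-214 (ENST00000582719), annotated as a target of nonsense-mediated decay, had 316 counts at 0 min, 49.1% of PER1 counts, and 0 at 10, 30 and 360 min. The main coding transcript PER1-201 (ENST00000317276) had 233, 1292, 838 and 593 counts at 0, 10, 30 and 360 min. Its ratio to 0 min was 5.67 (4.30 to 7.67) at 10 min and 2.62 (1.93 to 3.63) at 360 min. Counting protein-coding transcripts alone, an alternative added after the data were seen, put PER1 past the rule at every time, with log2 ratios of 2.29 at 10 min, 1.68 at 30 min and 1.12 at 360 min. Whether PER1 was above its 0 min level at 360 min thus depends on which transcripts are summed.

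PER2 (ENSG00000132326, chr2:238244038-238290102, minus strand), is a repressor in the same complex as PER1. Per length it was the lowest member in all 4 libraries, although its interval overlapped that of PER3 at 360 min. It stood at 3.31, 5.14, 3.58 and 3.44 CPM at 0, 10, 30 and 360 min. The 10 min library was the highest, but its interval (4.05 to 6.52) overlapped those of the other libraries. Against 0 min the ratio was 1.56 (1.07 to 2.31) at 10 min, 1.08 (0.720 to 1.67) at 30 min and 1.04 (0.690 to 1.61) at 360 min. PER2 was under 5 CPM at 0, 30 and 360 min and so was not tested in comparisons among those libraries, which leaves 9 of the 10 genes there.

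PER3 (ENSG00000049246, chr1:7784320-7845177, plus strand) is the third PER gene and is not required for the core oscillation in mice. Its annotated transcripts differed 11.3-fold between the highest and the lowest library. It stood at 5.10, 22.7, 7.15 and 2.01 CPM at 0, 10, 30 and 360 min. The ratio to 0 min was 4.45 (3.47 to 5.88) at 10 min and 1.40 (1.03 to 1.94) at 30 min. At 360 min PER3 was lower than at 0 min, with a ratio of 0.395 (0.249 to 0.628), and it was the 1 member of 9 tested to pass the rule in that comparison.

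Both PER3 calls against 0 min rest on the annotated transcripts. An assembled, unannotated model of the same locus had 905, 1014, 358 and 761 counts at 0, 10, 30 and 360 min, 75.7% of the locus at 0 min. With it included PER3 stood at 21.0, 40.9, 13.6 and 15.8 CPM, and the ratio to 0 min was 1.95 (1.69 to 2.25) at 10 min and 0.752 (0.628 to 0.898) at 360 min, neither past the rule. The 30 min ratio changed direction, to 0.648 (0.536 to 0.779). Against 10 min, the 360 min ratio was 0.386 (0.329 to 0.452) on this count and still past the rule. The 10 min library stayed the highest on both counts. UTS2, a gene on the other strand that shares 10.7% of PER3 exon bases, was at 0 in all 4 libraries.

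CRY1 (ENSG00000008405, chr12:106991364-107093829, minus strand), the cryptochrome that keeps CLOCK and BMAL1 inhibited late in the cycle, varied by 1.22-fold between its highest and lowest library. It stood at 39.9, 36.4, 44.3 and 42.9 CPM at 0, 10, 30 and 360 min. Against 0 min the ratio was 0.913 (0.807 to 1.03) at 10 min, 1.11 (0.987 to 1.24) at 30 min and 1.08 (0.956 to 1.21) at 360 min. All 3 intervals include 1.

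BHLHE40 (ENSG00000134107, chr3:4979116-4985323, plus strand), which encodes the E-box repressor DEC1, was per length the most abundant member in all 4 libraries. It stood at 95.9, 181, 129 and 108 CPM at 0, 10, 30 and 360 min. The 10 min library was the highest, and the 360 min interval (103 to 114) lay just above that of 0 min (90.9 to 101). Against 0 min the ratio was 1.89 (1.77 to 2.02) at 10 min, 1.34 (1.25 to 1.44) at 30 min and 1.13 (1.05 to 1.22) at 360 min. BHLHE40 was the member nearest to the 2-fold limit from below, as TEF was from above, and its depth made these ratios the most precise of the set.

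CLOCK (ENSG00000134852, chr4:55427903-55547138, minus strand), the E-box-binding partner of BMAL1, stood at 80.6, 60.3, 72.9 and 76.1 CPM at 0, 10, 30 and 360 min. It was lowest at 10 min, with a ratio to 0 min of 0.749 (0.683 to 0.818), and was not past the rule at any time. The ratio was 0.905 (0.831 to 0.986) at 30 min and 0.945 (0.868 to 1.03) at 360 min. The short transcript CLOCK-211 (ENST00000513440, 3580 bases) had 121, 115, 122 and 1051 counts at 0, 10, 30 and 360 min, which was 25.0% of CLOCK counts at 360 min and 2.64% at 0 min. Its ratio at 360 min was 8.96 (6.18 to 13.7), and that of the long CLOCK-201 (ENST00000309964, 10304 bases) was 0.705 (0.642 to 0.775). Per length, CLOCK therefore stood at 28.5 TPM at 360 min and 21.2 TPM at 0 min, a ratio of 1.34, where its CPM ratio was below 1.

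**Figure D2:**
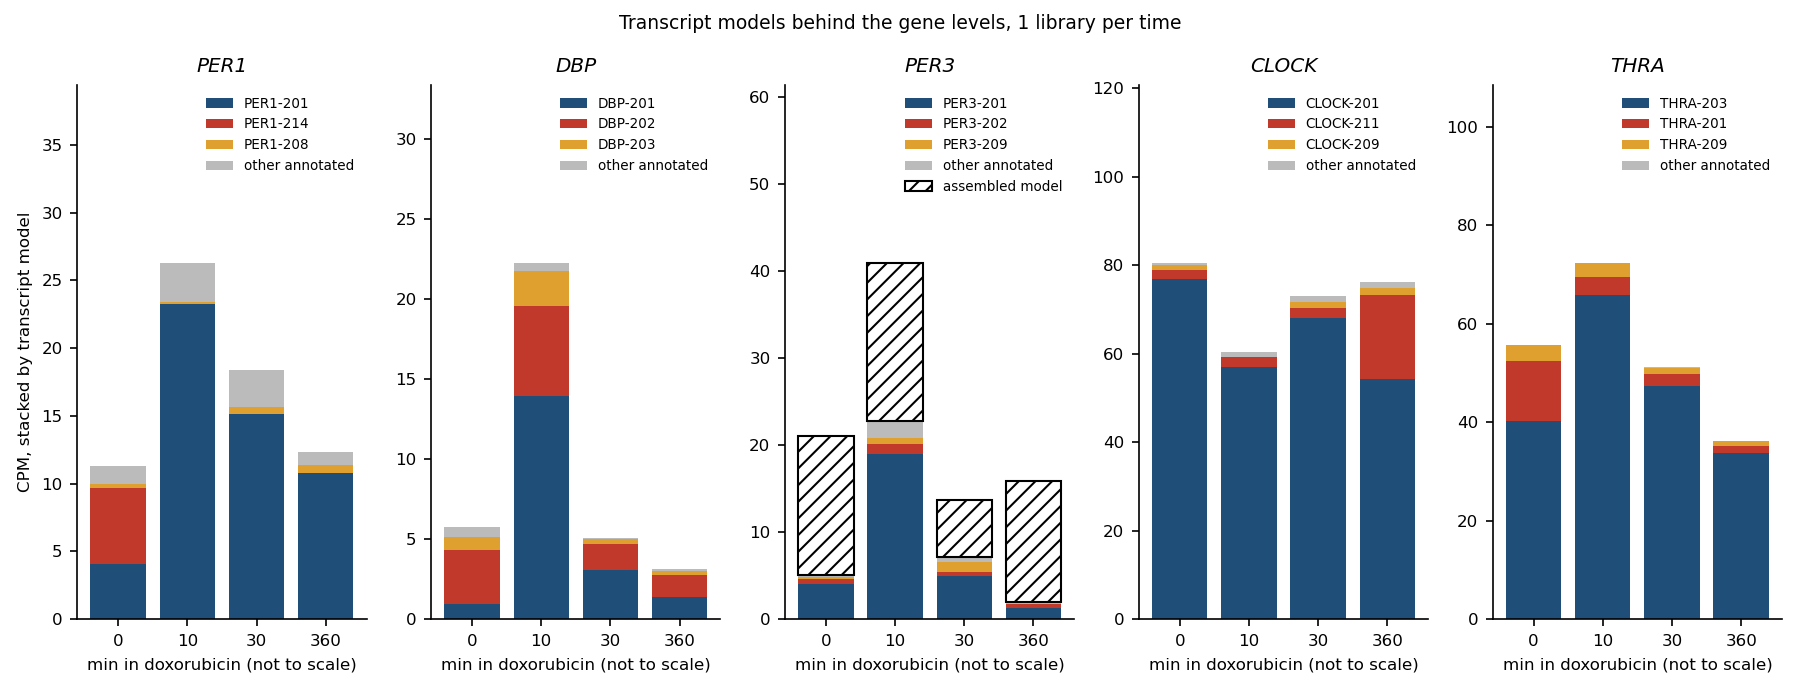
Levels in CPM (vertical axes, each from 0), stacked by transcript, of PER1, DBP, PER3, CLOCK and THRA, with the assembled PER3 model hatched, at 0, 10, 30 and 360 min (horizontal axis, not to scale), 1 library per time. PER1-214 has 316 counts at 0 min and 0 later, DBP-201 is highest at 10 min, the assembled PER3 model holds 75.7% of its locus at 0 min, CLOCK-211 is high at 360 min only, and THRA-201 is highest at 0 min.

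Levels can be compared between genes only per length, in TPM over annotated transcripts. At 10 min the order was BHLHE40 (126 TPM), DBP (34.9), CRY1 (29.1), NR1D2 (27.3), NR1D1 (21.9), PER1 (20.7), CLOCK (18.9), TEF (14.4), PER3 (10.8) and PER2 (1.89). At 0 min it was BHLHE40 (66.6 TPM), CRY1 (29.4), CLOCK (21.2), NR1D2 (20.5), DBP (14.0), PER1 (8.36), TEF (6.72), NR1D1 (4.17), PER3 (2.49) and PER2 (1.19). Among neighbours in these orders, the counting intervals at 10 min of DBP and CRY1, CRY1 and NR1D2, NR1D1 and PER1, and PER1 and CLOCK overlapped, and at 0 min those of CLOCK and NR1D2 and of PER1 and TEF did. BHLHE40 was the highest and PER2 the lowest in both libraries.

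At 30 min NR1D1 was past the size rule among 9 members tested, and none was lower. Of 11533 genes tested 3.55% were higher and 3.25% lower. The median log2 ratio of the 9 was 0.42, beside -0.01 over all genes tested. PER1 was 1.62-fold and TEF 1.70-fold higher, short of the rule, whereas DBP (0.884) and CRY1 (1.11) had intervals that include 1. Per length, the PER1 ratio was 2.15 and that of TEF 1.69.

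At 360 min PER3 was the only member past the rule against 0 min, and it was lower. Of 11511 genes tested 3.34% were lower and 3.26% higher. The median log2 ratio was 0.07, beside 0.01 over all genes tested. In CPM, DBP and TEF were lower by less than 2-fold, with intervals that exclude 1, and NR1D1, PER1 and CRY1 had intervals that include it. Per length, DBP had a ratio of 0.442, beyond 2-fold, and PER3 one of 0.530, short of it.

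**Figure D3:**
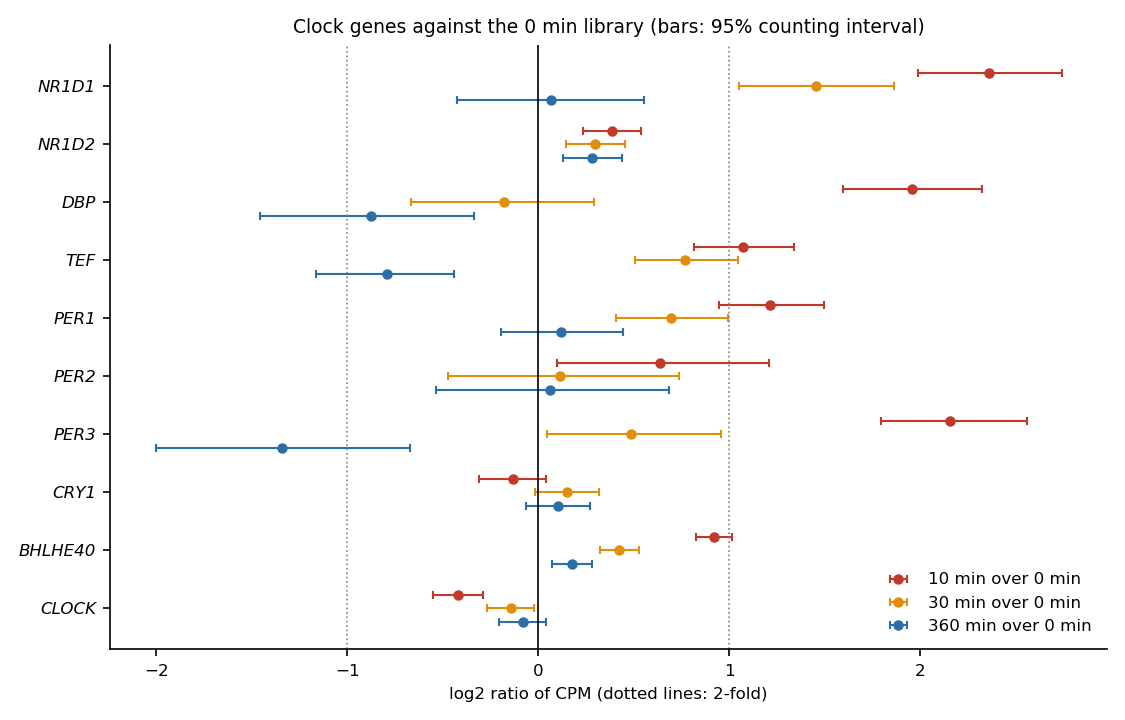
Log2 ratio of CPM to 0 min (horizontal axis) for the 10 clock genes (rows) at 10, 30 and 360 min, 1 library per time, with bars for the 95% counting interval and dotted lines at 2-fold. NR1D1, DBP, TEF, PER1 and PER3 are past the rule at 10 min, NR1D1 at 30 min and PER3, on the lower side, at 360 min.

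Between the later libraries the same 5 genes were lower. At 360 min against 10 min, NR1D1, DBP, TEF, PER1 and PER3 were past the rule and lower, where 9.13% of 11921 genes tested were lower and 7.99% higher. The 360 min to 10 min ratio was 0.0887 (0.0584 to 0.132) for PER3, 0.140 (0.0992 to 0.193) for DBP, 0.204 (0.157 to 0.264) for NR1D1, 0.274 (0.217 to 0.340) for TEF and 0.467 (0.388 to 0.563) for PER1. With the assembled model included PER3 had a ratio of 0.386 here. This comparison and that of 10 min with 0 min share the 10 min library, so they are not independent. BHLHE40 had a ratio of 0.597 (0.560 to 0.637) and CLOCK one of 1.26 (1.15 to 1.38), both short of 2-fold.

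All 5 were already below their 10 min level at 30 min, with intervals that exclude 1. At 30 min against 10 min, DBP at 0.227 (0.173 to 0.295) and PER3 at 0.315 (0.249 to 0.396) were past the rule and lower, where 7.54% of 11902 genes tested were lower and 6.86% higher. NR1D1 at 0.532 (0.445 to 0.638), PER1 at 0.698 (0.592 to 0.821) and TEF at 0.810 (0.695 to 0.946) were not past it. At 360 min against 30 min, TEF at 0.338 (0.266 to 0.422), NR1D1 at 0.384 (0.288 to 0.504) and PER3 at 0.282 (0.179 to 0.435) were lower past the rule, where 3.49% of 11502 genes tested were lower and 3.26% higher. With the assembled model included PER3 turned, to 15.8 CPM at 360 min, against 13.6 CPM at 30 min.

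Among the other parts of the loop, 7 of 10 core clock partners were tested at 10 min, with 1 higher and 1 lower. The shares over all genes tested were 7.69% higher and 6.85% lower. RORA, the activator that shares its sites with the REV-ERBs, stood at 4.52, 15.1, 7.92 and 5.64 CPM at 0, 10, 30 and 360 min, a ratio to 0 min of 3.33 (2.51 to 4.49) at 10 min. TIMELESS, in mammals chiefly a replication fork protein, stood at 130, 48.7, 123 and 124 CPM, a ratio of 0.374 (0.343 to 0.409) at 10 min. ARNTL, the target of the REV-ERBs and partner of CLOCK, stood at 13.2, 7.66, 11.3 and 12.7 CPM and had a ratio of 0.582 (0.453 to 0.740) at 10 min, not past the rule. NPAS2, a CLOCK paralogue, stood at 15.8, 24.5, 11.1 and 13.7 CPM, and its 30 min to 10 min ratio of 0.456 (0.374 to 0.553) was past the rule. RORB was at 0 in all 4 libraries. None of the 7 was past the rule against 0 min at 30 or 360 min.

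The D-box partners were few. HLF, the PAR factor closest to DBP and TEF, was at 0 in all 4 libraries. NFIL3, the repressor that competes for D-boxes, stood at 20.7, 24.2, 25.3 and 21.2 CPM at 0, 10, 30 and 360 min and was past the rule at no time.

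None of the 12 kinases, phosphatases and ubiquitin ligases of the clock was past the rule at 10 min. Of 11892 genes tested there, 7.69% were higher and 6.85% lower. CSNK1D, a casein kinase that marks PER proteins for degradation, stood at 146, 177, 148 and 147 CPM at 0, 10, 30 and 360 min, and CSNK1E, its paralogue, at 190, 206, 238 and 226 CPM. FBXL21, listed also as FBXL21P, was lower and past the rule at 360 min, with 2.86 CPM, against 8.24 CPM at 10 min.

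None of the 6 REV-ERB corepressor genes was past the rule at 10 min, where 7.69% of genes tested were higher and 6.85% lower. NCOR1, the main corepressor of the REV-ERBs, had ratios of 1.38 (1.28 to 1.48) at 10 min, 1.40 (1.30 to 1.51) at 30 min and 1.37 (1.26 to 1.47) at 360 min. HDAC3, the histone deacetylase of the complex, stood at 47.3, 42.3, 75.5 and 70.5 CPM at 0, 10, 30 and 360 min. TBL1X, an adaptor of the complex, had a ratio of 0.486 (0.443 to 0.532) at 30 min and was past the rule. GPS2, another subunit, was higher and past the rule at 360 min, with 41.9 CPM, against 20.8 CPM at 10 min.

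Of 7 further clock-controlled outputs tested, PPARA was past the rule at all 3 times against 0 min and lower. Over all genes tested, 6.85% were lower at 10 min, 3.25% at 30 min and 3.34% at 360 min. PPARA, the nuclear receptor for fatty acid oxidation, stood at 42.3, 19.2, 9.91 and 10.8 CPM at 0, 10, 30 and 360 min. Per length it did not follow, with 21.6 TPM at 10 min and 21.5 TPM at 0 min. At 360 min its TPM ratio was 0.600. TSC22D3, a glucocorticoid-induced gene, was lower and past the rule at 360 min, with 9.70 CPM, against 22.0 CPM at 10 min. NOCT, a rhythmic phosphatase, was higher and past the rule at 30 min, with 14.0 CPM, against 6.35 CPM at 10 min.

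Of 13 genes that relay clock-resetting signals, 3 were higher at 10 min and 3 at 30 min, and none was past the rule at 360 min against 0 min. Over all genes tested 7.69% were higher at 10 min and 3.55% at 30 min. The median log2 ratio of the 13 at 10 min was -0.05, beside -0.04 over all genes tested. EGR1, a serum-response gene, stood at 6.66, 85.9, 425 and 9.75 CPM at 0, 10, 30 and 360 min, and FOS, another, at 0.404, 8.58, 24.2 and 0.381 CPM. Both were highest at 30 min. At 10 min 8 of the 10 clock genes were highest, beside 34.1% of 12140 genes with at least 5 CPM in a library. KLF9, a glucocorticoid-responsive and rhythmic repressor, stood at 16.6, 38.9, 20.4 and 15.6 CPM, a ratio of 2.34 (2.01 to 2.74) at 10 min. SGK1, a kinase induced by serum and glucocorticoids, had a ratio of 2.43 (2.16 to 2.75) at 30 min and of 1.32 (1.15 to 1.51) at 10 min. NR4A1, an orphan receptor induced by cyclic AMP and serum, had ratios of 1.98 (1.49 to 2.68) at 10 min and 1.93 (1.45 to 2.62) at 30 min, both just short of 2-fold. The treatment labels name no agent other than doxorubicin, and the cause of these levels was not tested.

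**Figure D4:**
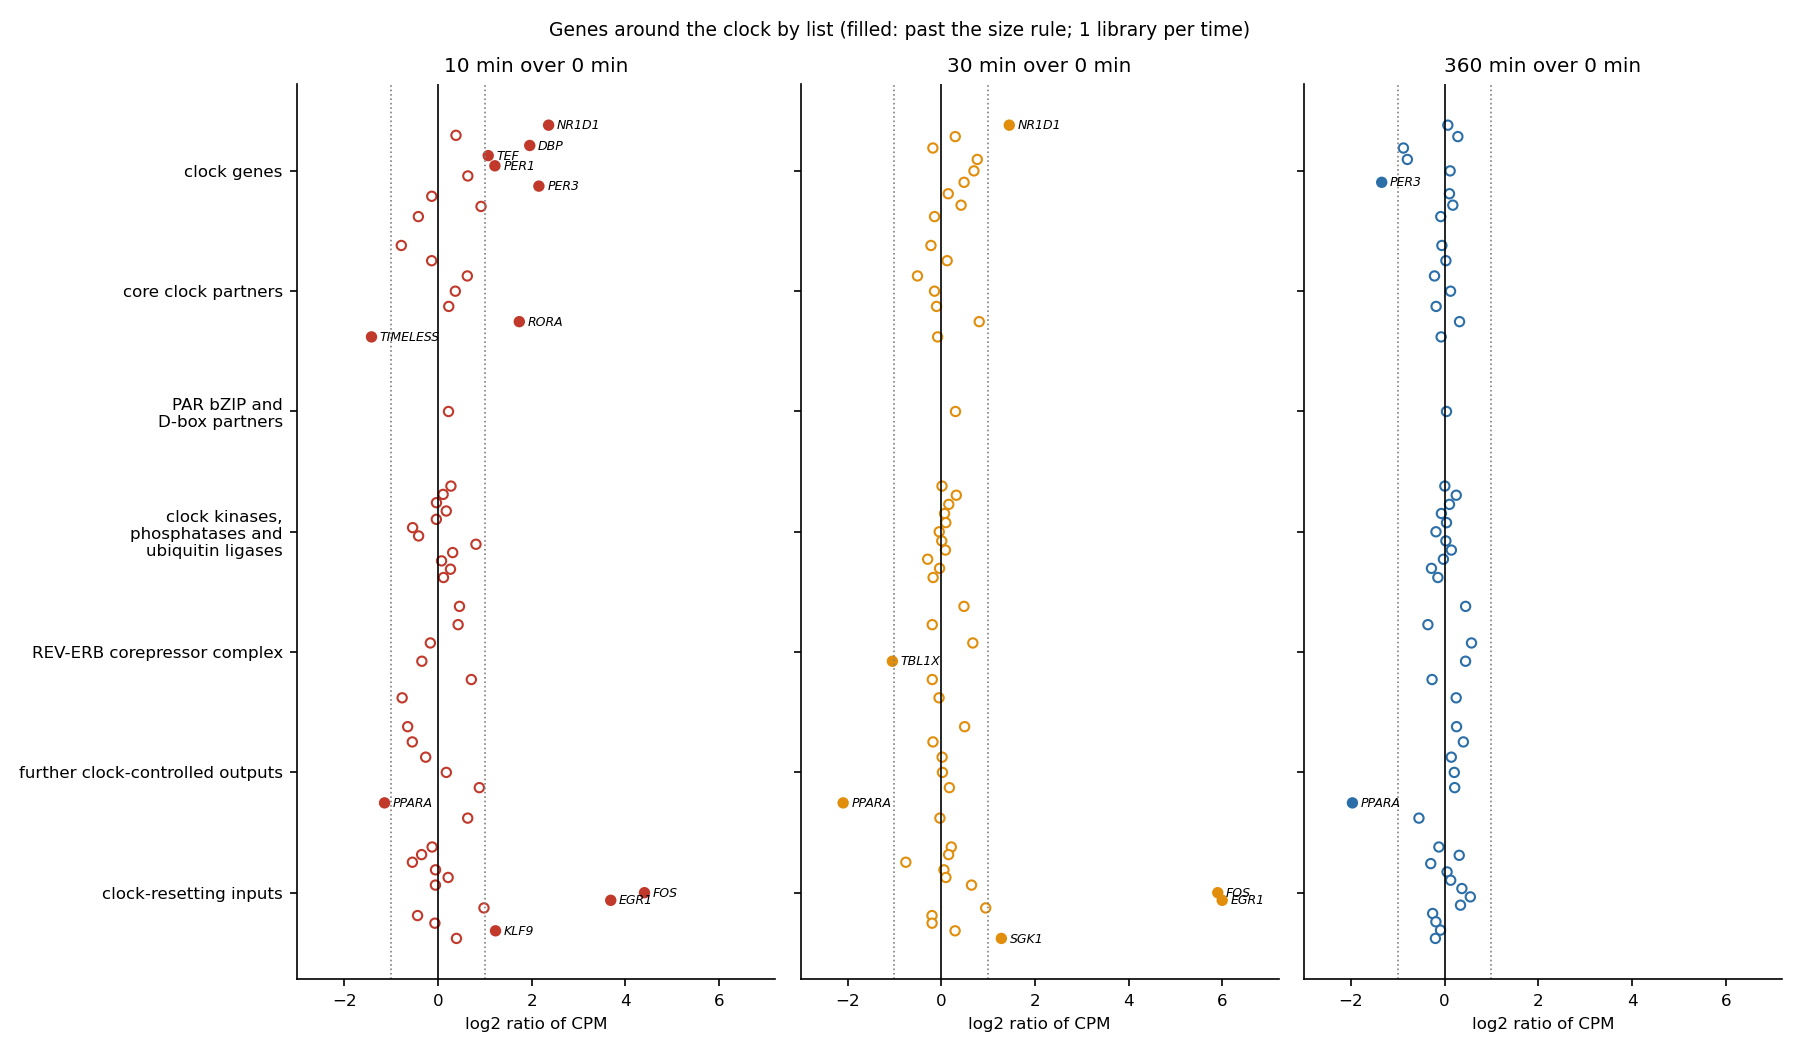
Log2 ratio of CPM to 0 min (horizontal axes) at 10, 30 and 360 min (panels) for each tested gene of the 10 clock genes and 6 lists around the clock (rows), 1 library per time, with filled points past the size rule and dotted lines at 2-fold. At 10 min 5 clock genes, RORA, FOS, EGR1 and KLF9 are filled on the higher side and TIMELESS and PPARA on the lower, and none of the 12 kinases, phosphatases and ubiquitin ligases is filled.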

How the data were processed

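Poly(A) RNA of AC16 cells was sequenced from 4 libraries, 1 per time. The authors deposited estimated counts per locus and per transcript, unscaled whole numbers. HISAT2, DESeq2 and GRCh38 are named, per the submitters' processing notes. For tool versions, the counting tool and strand use, nothing is given in the sources used here. Annotated transcript rows were summed per gene (GENCODE 29), which kept 88.9% of counts and left out the assembled models (11.1%), and were scaled to CPM by column totals. Of 7157 values between 1 and 24 in loci that carry the identifier of a gene with 1 annotated transcript, 32.4% were multiples of 4, where even spacing gives 25%. In all genes with 1 annotated transcript only 26.1% of 24294 such values were, and 1 (3531 values) was more common than 4 (2703). As the more cautious choice, 1 read pair was taken as about 4 counts in intervals and floors. This choice is not settled by the values. A count of 0 entered a ratio at 3 read pairs (12 counts). TPM divides by annotated length.

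Ratios of CPM have exact conditional binomial intervals (SciPy 1.17.1, Python 3.11.15). With 1 library per time, no test was run in edgeR 4.0.16 or DESeq2 1.42.0 (R 4.3.3), which served only for scaling factors. Intervals ignore variation between cultures, PCR duplicates and the sharing of reads among transcripts. Alternatives were TMM and median-of-ratios scaling, undivided counts, deposited loci, no CPM minimum, a 1.5-fold limit, the main transcript alone, and, added after the data were seen, coding transcripts alone and other libraries in place of 0 min.

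The members and lists were chosen with earlier results of these data known. Named genes are the 10 members, THRA and genes that share at least 10% of a member's exon bases, list genes past the size rule or, up to 3 per list, with the largest ratios, and the 3 nearest profiles of NR1D1, DBP and PER1. CSNK1D, CSNK1E, NCOR1, HDAC3, NR4A1, RORB and HLF were named after their values were seen, for their roles. Some genes named by this rule are not reported here. Promoter sequences come from RefSeq (GRCh38.p14), and all 10 members matched. Protein sequences were not used here.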

Additional observations from a re-analysis of the deposited data

How the results depend on the processing

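Of 236 member ratios recomputed, 220 lay within the interval of the reported ratio, 16 moved and 0 of the called ones reversed. Of the 236, 8 changed side of the size rule, all of PER1 or PER3. The 220 include ratios that could not differ. Undivided counts alter only the intervals, and deposited loci repeat the counts of members without an assembled model. NR1D1 has a single transcript with counts, so choosing among transcripts could not change it. TMM and median-of-ratios scaling and undivided counts left the member counts as reported. Deposited loci covered only the 41368 genes tied to a locus, with 86.0% of counts, so fewer genes could pass than among all 57891. On them 3 members were higher at 10 min (DBP, NR1D1 and TEF) and 0 lower at 360 min. PER1 has no locus of its own and PER3 fell short. Genes lower at 10 min numbered 490. Genes higher and lower numbered 167 and 139 at 30 min and 97 and 101 at 360 min. At 360 against 10 min 628 were higher. Shares of genes tested are not given for loci. Without a CPM minimum, genes higher and lower numbered 2283 and 1316 at 10 min, 996 and 929 at 30 min, 797 and 929 at 360 min, and 2580 were lower at 360 against 10 min. At 1.5-fold they numbered 1960 and 2026 of 11892 tested at 10 min, and 953 and 883 of 11533 at 30 min. At 360 min they numbered 773 and 805 of 11511, and at 360 against 10 min 2274 and 2234 of 11921. By this limit 3 members were higher at 30 min (NR1D1, PER1 and TEF) and 3 lower at 360 min (DBP, PER3 and TEF). With coding transcripts alone, 2 members were higher at 30 min (NR1D1 and PER1), and at 360 min 1 was higher (PER1) and 0 lower. No share over all genes was computed for coding transcripts, so these member counts have no background beside them. With the 30 min library in place of 0 min, 2 members (DBP and PER3) were higher at 10 min, as were 7.54% of 11902 genes tested. With the 360 min library 5 members were, and 9.13% of 11921 genes tested. The causes of these differences were not tested. No paired analysis was possible because each time has 1 library. Low counts limit PER2 (10 min ratio interval 1.07 to 2.31) and PER3 (360 min interval 0.249 to 0.628).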

Other observations

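The genes whose profiles over the 4 libraries lay nearest to those of NR1D1, DBP and PER1, by distance between centred log2(CPM + 1) values among 12140 genes, are a description with 4 points each. Among the nearest to NR1D1 were TCP11L2 (2.43, 10.3, 5.59 and 2.03 CPM at 0, 10, 30 and 360 min) and SYT17. Nearest to DBP were JRK (11.0, 36.5, 10.6 and 5.84 CPM), CYP4F2, which has near copies, and GBP2. Nearest to PER1 were ATP6AP2 (75.8, 164, 118 and 80.3 CPM), PLD1 and SHROOM4.

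Genes with a D-box in a promoter window were past the size rule on the higher side at 10 min in 28 of 215 tested (13.0%), against 7.32% of 9140 tested genes with any window. Their median log2 ratio was -0.03, beside -0.06 for genes with any window. At 360 min against 0 min 7.18% of D-box genes were higher, against 3.12% of genes with any window, and 5.74% were lower, against 3.15%. Genes with an E-box were higher at 10 min in 5.40% of 1185 tested and lower in 8.78%, against 6.91% lower among genes with any window. The shares are descriptions, and no test of them was made.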
